A study of Mus musculus with 6 samples.

Results

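The nuclear genes of the mitochondrial ribosome were compared between left ventricles of mice given 2-methyl-2-thiazoline (2MT), a small thiazoline compound, and left ventricles of a saline group. Members were taken by name, as genes whose symbol starts with Mrpl or Mrps and a number, on probe sets that the platform annotation assigns to 1 gene. This gave 85 of the 28944 probe sets on the array and 77 of 19938 named genes, 48 named Mrpl and 29 named Mrps. Every animal was a male C57BL/6 mouse 10 weeks old, and there were 3 saline and 3 2MT samples with 1 Affymetrix array each. According to the protocol text, 2MT went under the skin at 50 mg/kg and hearts were removed after 4 h. That text names no saline injection, although all 6 samples carry it, and nothing states that the arrays came from separate animals. The p-values therefore rest on the variation among 6 arrays alone, part or all of which may be technical.

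Mitochondria keep a ribosome of their own, which translates the few proteins that mitochondrial DNA still encodes, all of them core parts of the respiratory chain and ATP synthase. Its ribosomal RNAs come from mitochondrial DNA, whereas its proteins are made in the cytosol from nuclear genes and imported. A large subunit, which joins the amino acids, and a small subunit, which reads the messenger RNA, are built partly from relatives of bacterial ribosomal proteins and partly from proteins found in mitochondria alone. The heart depends on this machinery for its respiratory capacity, and inherited defects of several members cause cardiomyopathy in humans.

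Of the 77 members, 0 passed an adjusted p of 0.05 in limma, against 4.63% of all 10547 genes tested (2.22% higher and 2.41% lower in 2MT). All 77 were above the filter on dim genes, with means from 5.03 to 9.31 on the log2 signal scale and a filter at 4.345, so no member was lost as dim. Differences of 2MT minus saline ran from -0.24 for Mrps30 to 0.33 for Mrpl47 on the log2 scale, with a median of -0.03, while the median of all tested genes was 0.00. The difference was under 0.1 in size in 52 members, and 1 member, Mrpl47, reached 1.25-fold.

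The median 95% interval of a member reached 0.15 on the log2 scale to each side of its estimate, equal to 1.11-fold. For 64 of 77 members the whole interval lay within 1.25-fold of no difference, and for 76 within 1.5-fold, the exception being Mrpl47. A p that misses the threshold does not show that a member was equal in the groups.

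**Figure D1:**
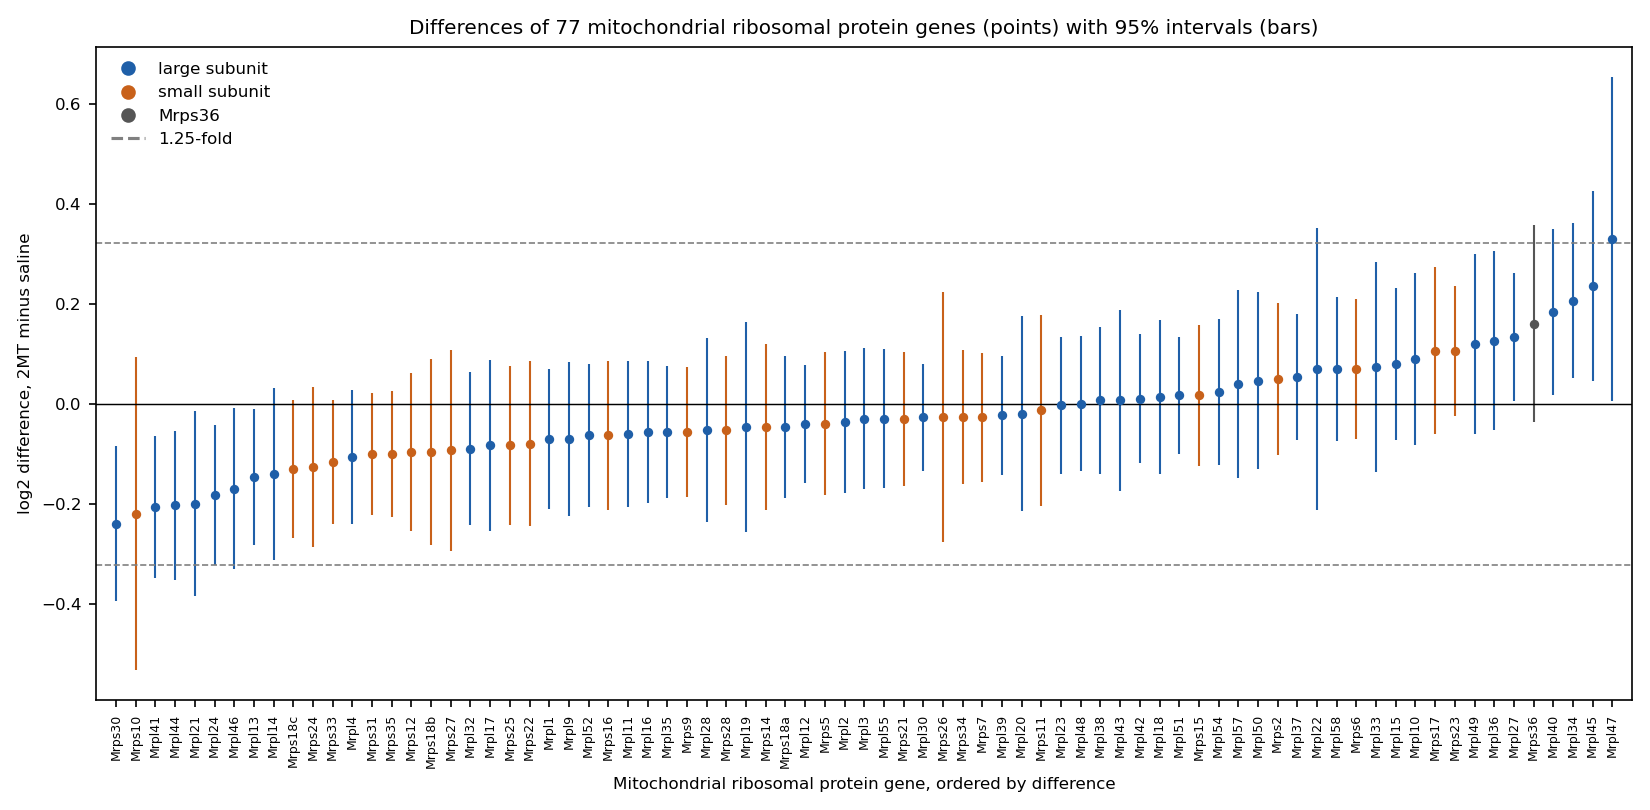
Log2 difference of 2MT minus saline (vertical axis) for each of the 77 members (horizontal axis, ordered by difference), with 95% intervals from limma as bars and dashed lines at 1.25-fold. Blue points are large subunit members, orange points small subunit members and the grey point Mrps36, and most intervals cross 0.

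An unadjusted p under 0.05 was reached by 12 members (15.6%), against 17.8% of all genes tested. That number was 4 without 2MT 2 and 6 without 2MT 3. The 3 values of 1 group lay entirely above or below those of the other in 16 members (20.8%), against 21.1% of all genes tested. Both shares are near the background, so they are not a result about this family, and an exact permutation test of 3 against 3 arrays cannot give a p below 0.1 for any single member.

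The 12 members with an unadjusted p under 0.05, 7 of them lower and 5 higher in 2MT, are described array by array. Mrps30, which carries a small subunit name but sits in the large subunit, had the smallest p. Its log2 signal was 6.61, 6.57 and 6.74 in saline and 6.39, 6.40 and 6.41 in 2MT. All 2MT arrays lay below all saline arrays, and the difference was -0.24 ± 0.07 (SE, adjusted p = 0.081).

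Mrpl41, a large subunit protein without a bacterial relative, was at 8.93, 8.68 and 8.92 in saline and 8.64, 8.61 and 8.66 in 2MT. The groups did not overlap, but saline 2 lay close to the 2MT arrays (difference -0.21 ± 0.07, SE, adjusted p = 0.10). Without saline 2 the difference was -0.29 and the adjusted p 0.016. Without saline 1 it was -0.16 and without saline 3 -0.17 (limma adjusted p = 0.31 and 0.21). Mrpl44, a protein with a ribonuclease III fold whose loss causes infantile cardiomyopathy in humans, was at 7.03, 7.0 and 6.93 in saline and 6.82, 6.69 and 6.84 in 2MT. All 2MT arrays were lower, at a difference of -0.20 ± 0.07 (SE, adjusted p = 0.13).

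Mrpl24, which lies near the exit of the tunnel through which the new protein leaves, was at 7.58, 7.69 and 7.59 in saline and 7.53, 7.40 and 7.38 in 2MT. Mrpl46, a protein of the central protuberance of the large subunit, was at 6.69, 6.54 and 6.60 in saline and 6.53, 6.38 and 6.41 in 2MT. In both genes the groups were apart by a narrow margin, 2MT 1 lying next to the lowest saline array (adjusted p = 0.15 and 0.25). Mrpl13, which has a bacterial relative, was at 7.12, 7.13 and 7.14 in saline and 6.95, 6.96 and 7.04 in 2MT, with no overlap (adjusted p = 0.24). Mrpl21, another protein shared with bacteria, was at 6.80, 6.70 and 7.01 in saline and 6.70, 6.53 and 6.68 in 2MT, where 2MT 1 equalled saline 2 (adjusted p = 0.24).

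Among the members with higher means, Mrpl34, which has a bacterial relative, was at 7.04, 7.06 and 7.17 in saline and 7.21, 7.42 and 7.26 in 2MT. Every 2MT array was above every saline array (difference 0.21 ± 0.07, SE, adjusted p = 0.14). Mrpl27, whose bacterial relative reaches the site where amino acids are joined, was at 7.70, 7.66 and 7.73 in saline and 7.88, 7.76 and 7.85 in 2MT. Here too the groups did not overlap, though 2MT 2, at 7.76, lay next to saline 3, at 7.73. The means differed by 0.133 on the log2 scale (adjusted p = 0.26).

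Mrpl45, which helps to hold the ribosome at the inner membrane, was at 7.28, 7.15 and 7.54 in saline and 7.63, 7.58 and 7.47 in 2MT. Saline 3 lay among the 2MT arrays, and the difference of 0.24 ± 0.09 (SE, adjusted p = 0.17) became 0.35 with an adjusted p of 0.018 when that array was left out. Mrpl40, a protein of the central protuberance, was at 6.84, 6.82 and 6.90 in saline and 7.15, 6.88 and 7.08 in 2MT, with 2MT 2 inside the saline range (adjusted p = 0.23). Mrpl47, at the tunnel exit, was at 6.06, 5.25 and 5.78 in saline and 6.03, 5.94 and 6.11 in 2MT. Its low value on saline 2 gave the widest spread of any of these 12 (SD 0.41 in saline and 0.09 in 2MT), and the difference of 0.33 was 0.11 without saline 2 and 0.51 without saline 1.

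**Figure D2:**
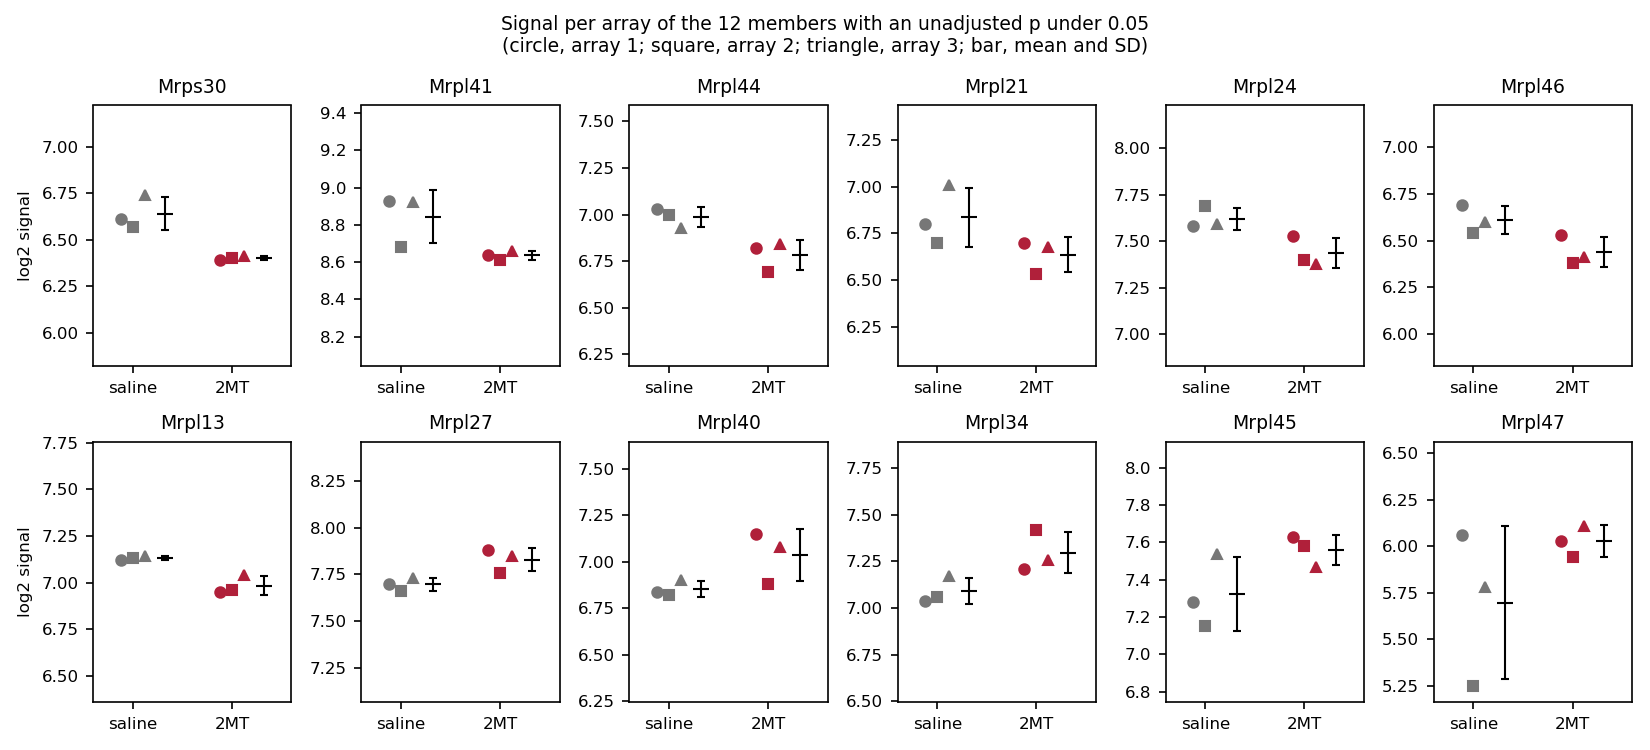
Log2 signal (vertical axis, the same span of 1.4 in each panel) of the 12 members with an unadjusted p under 0.05, by group and array, with the mean and SD (n = 3) as a bar to the right of each group. The groups are apart in 8 panels and overlap in Mrpl21, Mrpl40, Mrpl45 and Mrpl47.

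All 12 belong to the 50 large subunit members (24%), counting Mrps30 and Mrps18a, and 0 to the 26 small subunit members. Of all genes tested in limma, 17.8% had an unadjusted p under 0.05. Adjusted p values under 0.05 were 0 in both subunits, and whether the subunits differ was not tested. Small subunit members leaned to lower means, with 21 of 26 lower in 2MT (80.8%) and a median difference of -0.06. In the large subunit 28 of 50 were lower (56%), at a median of -0.03, and among all tested genes 48.1% were lower. Of the cytosolic ribosomal protein genes and complex I subunits described below, 72.4% and 61.8% were lower. Among small subunit members, Mrps18c, Mrps31 and Mrps35 lay below saline on every 2MT array and Mrps6 above it. Their adjusted p values were 0.31, 0.39, 0.41 and 0.64. These 4 are 15.4% of the small subunit members, and 21.1% of all genes tested had groups that did not overlap. Mrps10 had the lowest difference in the small subunit, -0.22 ± 0.15 (SE, adjusted p = 0.47). It was at 6.22, 6.14 and 5.59 in saline and 5.81, 5.94 and 5.54 in 2MT, so that array 3 was lowest in both groups. Without saline 3 its difference was -0.42 and its adjusted p 0.049.

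Of 47 members classed as shared with bacteria, among which Mrps18a was counted, 34 were lower on average in 2MT, the median difference being -0.04. Of 29 ribosomal members classed as specific to mitochondria, among which Mrps18b was counted, 15 were lower, at a median of -0.02. The shares were 72.3% and 51.7%, against 48.1% of all tested genes. Whether these classes differ was not tested. Mrpl12, the stalk protein that draws translation factors to the ribosome, was at 8.32 ± 0.04 in saline and 8.28 ± 0.05 in 2MT (SD, n = 3, adjusted p = 0.78). Mrps12, part of the decoding centre, was at 6.51 ± 0.08 and 6.42 ± 0.05 (adjusted p = 0.54). Mrpl43, a large subunit protein without a bacterial relative, was at 5.81 ± 0.11 and 5.81 ± 0.05 (adjusted p = 0.98).

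Among the members that share the name Mrps18, Mrps18a sits in the large subunit and Mrps18b and Mrps18c in the small. Their differences were -0.05, -0.10 and -0.13, with adjusted p values of 0.79, 0.62 and 0.31. Mrps36, since assigned to the oxoglutarate dehydrogenase complex of the citric acid cycle rather than to the ribosome, had the opposite sign. It was at 5.76, 5.50 and 5.79 in saline and 5.83, 5.82 and 5.88 in 2MT. All 2MT arrays were above saline, at 0.16 ± 0.09 (SE, adjusted p = 0.40). The rest of the 10 highest differences were those of Mrpl36, Mrpl49, Mrps23 and Mrps17, between 0.11 and 0.13, and the rest of the 10 lowest were those of Mrpl14, at -0.14, and Mrps18c.

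The family median varied among arrays of 1 group as well as between the groups. Taken as deviations from each gene's mean over the 6 arrays, the median of the 77 members was 0.03, -0.03 and 0.05 on saline 1, 2 and 3, and 0.00, -0.03 and -0.02 on 2MT 1, 2 and 3. Saline 2 thus lay among the 2MT arrays. From lowest to highest the spread was 0.08 among saline arrays and 0.04 among 2MT arrays, and the groups' means differed by -0.04. A range over arrays and a difference of means are unlike measures, and which variation was larger was not tested. On saline 3, 56 members were above their own mean, and on saline 2, 26 were. Means were lower in 2MT in 49 members, higher in 27 and equal in 1, Mrpl48, while 5070 of all 10547 tested genes were lower.

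**Figure D3:**
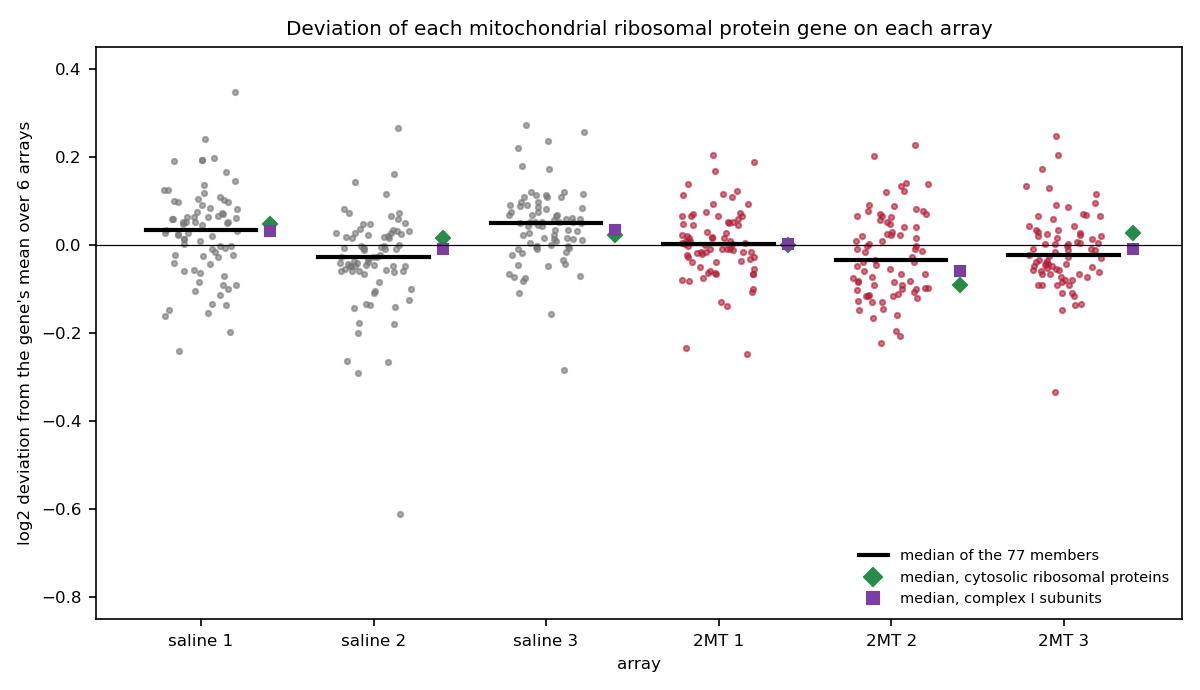
Deviation of each of the 77 members from its own mean over the 6 arrays (vertical axis, log2 scale) by array, with the family median as a black line. Diamonds and squares give the medians of 58 cytosolic ribosomal protein genes and 34 complex I subunits, and the black line of saline 2 lies with those of the 2MT arrays.

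The array that stood apart for red cell markers and the array that stood apart for atrial markers were both in the saline group. All 8 markers listed for cardiomyocytes and the left ventricle were bright, at list means of 12.24 to 12.25 in saline and 12.24 to 12.26 in 2MT. That goes with heart muscle, and whether the list tells ventricle from atrium was not tested. The mean of Alas2 and Bpgm, 2 of 6 erythrocyte markers, the others not analysed here, reached 6.92 on saline 3 against 5.76 to 6.08 elsewhere. The mean of 3 atrial markers reached 4.99 on saline 2 against 3.71 to 3.92 elsewhere, with Myl7 and Sln under the dim filter on average. Their part in the members' values was not tested. Leaving out saline 3 gave 2 called members, Mrpl45 higher and Mrps10 lower, leaving out saline 2 gave 1, Mrpl41 lower, and leaving out any other array gave 0. Over all tested genes, 646 were called without saline 3 and 351 without saline 2, against 488 with all arrays. Of 6 skeletal muscle markers 5 were under the dim filter, and endothelial, fibroblast, macrophage and smooth muscle lists, of 5, 5, 5 and 4 genes, had array means of 7.70 to 7.86, 7.51 to 7.60, 5.79 to 6.05 and 5.76 to 5.84 in saline and 7.80 to 7.98, 7.50 to 7.66, 5.91 to 6.09 and 5.62 to 5.97 in 2MT. Of the endothelial markers, Pecam1 fell by 0.33 (adjusted p = 0.020), while the other 4 had higher means in 2MT and did not pass. In whole tissue, fewer cells of a type and less RNA per cell cannot be told apart.

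Other parts of mitochondrial translation were read from 5 lists, of which 4 hold the ribosome's other proteins, its factors and its enzymes. In those 4, 0 of 67 tested genes passed in limma, against 4.63% of all genes tested. An unadjusted p under 0.05 was reached by 7 of the 67, against 17.8% of all genes tested. Of the mitoribosomal proteins with other names, Dap3, Chchd1, Ptcd3 and Gadd45gip1 were tested, and their differences lay between -0.16 and 0.13. The 17 translation factors had a median of 0.03. Mtrf1l, a release factor that frees the finished protein, came nearest, at 5.28, 5.25 and 5.36 in saline and 5.51, 5.62 and 5.57 in 2MT. Its groups did not overlap (difference 0.27 ± 0.08, SE, adjusted p = 0.096). Mrrf, which recycles ribosomes, differed by 0.16, Slirp, which stabilises mitochondrial messenger RNAs, by -0.19, and Tufm, the elongation factor that brings in transfer RNAs, by -0.13, with adjusted p values of 0.20, 0.17 and 0.27. Slirp passed without saline 2 (adjusted p = 0.035).

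The 28 tested factors of ribosome assembly and ribosomal RNA modification had a median of 0.03. An unadjusted p under 0.05 in limma was reached by 0 of them, against 17.8% of all genes tested. Mterf3, Mterf4, Ddx56 and Ngrn had the smallest p values among them, at differences of 0.15, -0.19, -0.18 and 0.15. Their adjusted p values were 0.29, 0.33, 0.34 and 0.35. Ddx56 is counted here because the list holds it, and these data do not show that it acts on the mitochondrial ribosome. The 18 genes of mitochondrial aminoacyl-tRNA synthesis, whose enzymes load transfer RNAs with amino acids, had a median of 0.00. Iars2, for isoleucine, differed by 0.19, Vars2, for valine, by -0.22, Gatc, a subunit of the enzyme that forms glutamine on its transfer RNA, by 0.20, and Fars2, for phenylalanine, by 0.11. Their adjusted p values were 0.15, 0.24, 0.26 and 0.43. Without saline 3, where 646 of all tested genes passed against 488 with all arrays, Iars2 and Gatc passed (adjusted p = 0.033 and 0.024).

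In the fifth list, of factors for mitochondrial transcription and biogenesis, Ppargc1a and Ppargc1b rose and Myc fell among 20 tested genes. Of all genes tested, 2.22% rose and 2.41% fell. Whether that list differs from the ribosomal proteins was not tested. The coactivators Ppargc1a and Ppargc1b are known for driving nuclear genes of mitochondrial proteins, and Myc is known for driving genes of growth and ribosome production. Ppargc1b was at 5.51, 5.78 and 5.77 in saline and 6.46, 6.47 and 6.41 in 2MT, and Ppargc1a at 9.25, 9.59 and 9.41 and at 9.92, 9.86 and 9.99. Both were higher on every 2MT array, by 0.76 ± 0.09 and 0.51 ± 0.07 (SE, adjusted p = 1.5e-04 and 9.0e-04). Myc was at 5.70, 5.31 and 5.78 in saline and at 4.21, 4.27 and 3.99 in 2MT, which is under the dim filter (adjusted p = 1.5e-05).

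Other regulators in that list did not pass. Nrf1, encoding nuclear respiratory factor 1, was at 4.78 ± 0.05 in saline and 4.69 ± 0.16 in 2MT (SD, n = 3, adjusted p = 0.73), and Gabpa, an ETS factor of respiratory genes, at 7.31 ± 0.12 and 7.46 ± 0.14 (adjusted p = 0.34). Tfam, which packages and transcribes mitochondrial DNA, was at 5.80 ± 0.17 and 5.94 ± 0.10 (adjusted p = 0.52). Esrra, a nuclear receptor partner of these coactivators, differed by 0.00 ± 0.07 (SE, adjusted p = 0.99). Tefm, Polg and Twnk, which elongate mitochondrial transcripts, copy mitochondrial DNA and unwind it, differed by 0.27, -0.20 and 0.21 with adjusted p values of 0.11, 0.20 and 0.27.

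**Figure D4:**
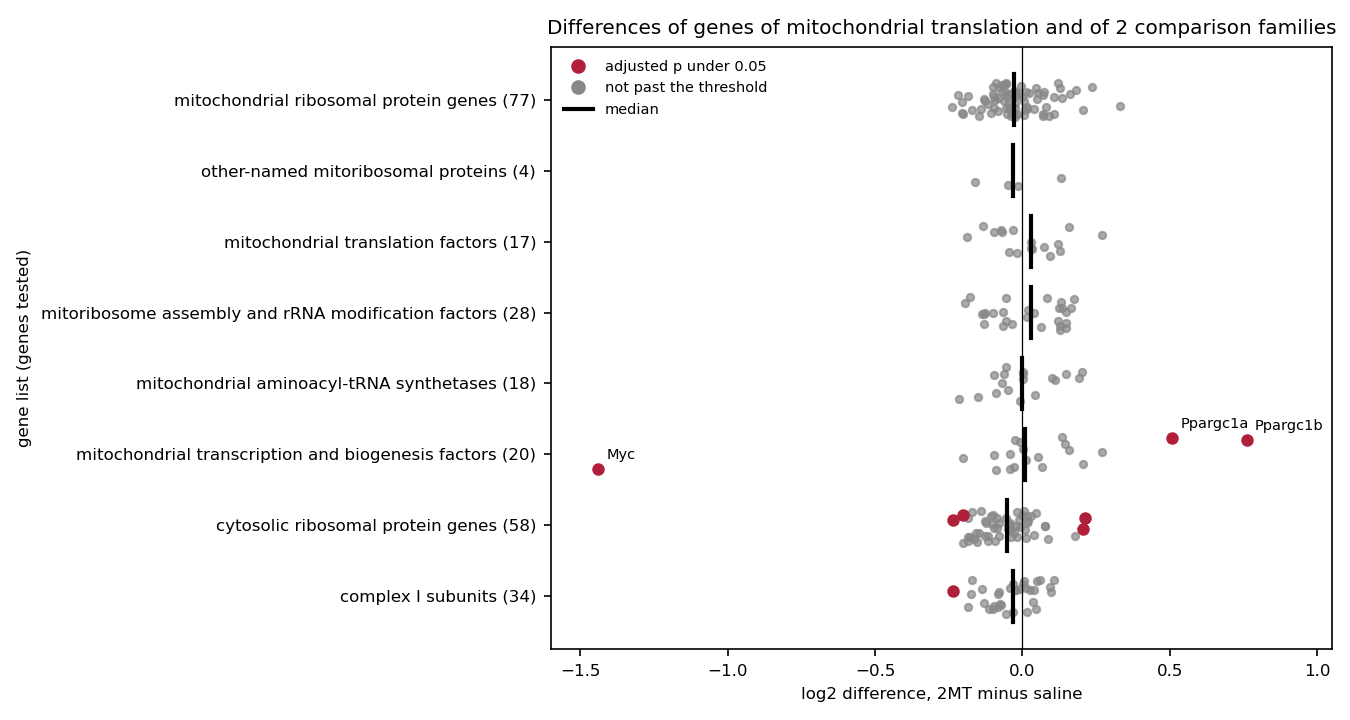
Log2 difference of 2MT minus saline (horizontal axis) for every tested gene, by row, with medians as black lines. Rows are the family, 5 lists of mitochondrial translation, transcription and biogenesis, and 2 comparison families, with the number tested. Red points passed an adjusted p of 0.05, and the top row, the mitochondrial ribosomal proteins, has 0 of them.

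Beside these, 58 cytosolic ribosomal protein genes had 2 rises and 2 falls, with a median difference of -0.05. The 34 genes named as complex I subunits had 0 rises and 1 fall, with a median of -0.03. Of all genes tested, 2.22% rose and 2.41% fell. Both families were taken by name, so a gene of another complex may be counted. The called genes of these families were Rpl10a and Rpl21, higher, and Rplp1, Rps28 and Ndufb11, lower. Their differences lay between -0.24 and 0.21, a size that mitochondrial ribosomal members also had. The median SE was 0.07 in the members, 0.06 in the cytosolic ribosomal family and 0.05 in complex I. Whether the families differ was not tested.

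The promoters of the members are shown because coactivators known to act on genes of mitochondrial proteins rose. RefSeq promoter windows, 250 bases before to 50 after the gene start on GRCm38.p6, were at hand for 68 of 77 members. The letters GCGCATGCG, the core that nuclear respiratory factor 1 binds, were found on either strand in 7 of 68 members (10.3%), against 3.92% of 8325 tested genes and 2.41% of 17492 protein-coding genes. The letters CCGGAAGT of ETS factors such as GABPA were in 11 (16.2%), against 8.48% and 5.29%, and AAGATGGCG of YY1 in 8 (11.8%), against 3.48% and 1.94%. CACGTG, the E-box of MYC, was in 5 (7.35%), against 10.5% and 7.90%, TGACGTCA of CREB in 2 (2.94%), against 3.41% and 2.34%, and TGACNNNGC, the antioxidant response element, in 14 (20.6%), against 14.9% and 13.2%. A match describes letters and not a bound site, and windows of neighbouring genes can overlap. Members with the nuclear respiratory factor 1 letters had a median difference of -0.07 and those without -0.03, and for the ETS letters the medians were -0.03 and -0.04.

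The stretches that follow are the 150 bases before the gene start, 5′ to 3′ on the gene's strand, with any of these motifs in capitals. The nuclear respiratory factor 1 letters nearly mirror themselves, so an unbroken run of 10 capitals holds a match on each strand that overlaps the other. Mrpl32 (chr13:14613038-14613187, minus strand) and Mrpl39 (chr16:84735245-84735394, minus strand) hold nuclear respiratory factor 1 letters, Mrps22 (chr9:98601680-98601829, minus strand) and Mrpl3 (chr9:105053118-105053267, plus strand) ETS letters, and Mrpl36 (chr13:73330859-73331008, plus strand) an E-box followed by YY1 letters. Mrps30 (chr13:118387253-118387402, minus strand) and Mrpl45 (chr11:97315566-97315715, plus strand), among the members with the lowest and highest differences, hold none of them here.
Mrpl32: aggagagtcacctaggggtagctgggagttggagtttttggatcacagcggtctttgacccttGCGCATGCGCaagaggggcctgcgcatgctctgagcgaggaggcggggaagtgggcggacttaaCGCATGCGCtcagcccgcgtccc
Mrpl39: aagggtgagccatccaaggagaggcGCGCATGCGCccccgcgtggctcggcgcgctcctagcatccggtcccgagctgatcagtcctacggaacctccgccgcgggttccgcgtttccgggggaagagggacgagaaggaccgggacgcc
Mrps22: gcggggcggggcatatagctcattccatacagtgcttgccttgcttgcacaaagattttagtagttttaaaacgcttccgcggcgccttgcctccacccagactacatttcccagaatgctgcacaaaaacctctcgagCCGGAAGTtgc
Mrpl3: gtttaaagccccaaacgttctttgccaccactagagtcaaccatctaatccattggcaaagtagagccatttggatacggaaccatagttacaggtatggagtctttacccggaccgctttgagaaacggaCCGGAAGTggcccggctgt
Mrpl36: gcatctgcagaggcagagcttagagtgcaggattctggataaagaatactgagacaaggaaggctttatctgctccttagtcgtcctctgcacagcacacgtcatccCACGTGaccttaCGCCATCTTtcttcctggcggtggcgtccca
Mrps30: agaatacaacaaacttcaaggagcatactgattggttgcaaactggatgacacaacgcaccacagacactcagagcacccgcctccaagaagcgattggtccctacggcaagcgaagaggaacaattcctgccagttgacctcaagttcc
Mrpl45: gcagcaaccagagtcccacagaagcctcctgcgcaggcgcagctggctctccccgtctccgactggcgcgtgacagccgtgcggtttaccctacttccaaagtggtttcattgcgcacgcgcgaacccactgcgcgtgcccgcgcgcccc

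Since 0 of the 77 members passed, the genes with printed promoters did not pass either, and whether their letters matter was not tested. Mrpl32, with 2 separate matches, was at 6.63 ± 0.07 in saline and 6.54 ± 0.05 in 2MT (SD, n = 3, adjusted p = 0.56), and Mrpl39 at 8.78 ± 0.08 and 8.75 ± 0.04 (adjusted p = 0.89). Mrps22 and Mrpl3, in both of which human mutations cause cardiomyopathy, were at 6.83 ± 0.06 and 6.75 ± 0.12 (adjusted p = 0.66) and at 7.74 ± 0.08 and 7.71 ± 0.08 (adjusted p = 0.88). Mrpl36 differed by 0.13 (adjusted p = 0.47).

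Many members start back to back with another gene. In 23 of 68 members (33.8%) a protein-coding gene on the opposite strand started within 1000 bases upstream, against 11.4% of tested genes and 7.52% of protein-coding genes. Of the 18 partners tested, 0 passed in limma, and 2, Hira and the member Mrpl46, had an unadjusted p under 0.05, which 17.8% of all tested genes had. Mrpl46 and Mrps11, both members, have starts 42 bases apart, and differed by -0.17 and -0.01. Mrps12 starts 147 bases from Sars2, the mitochondrial seryl-tRNA synthetase, and the pair differed by -0.10 and -0.06 (adjusted p = 0.54 and 0.82). Mrpl47 starts 308 bases from Ndufb5, a complex I subunit, and the pair differed by 0.33 and 0.05. Mrpl40 and its neighbour Hira, a histone chaperone, 113 bases apart, differed in opposite directions, by 0.18 and -0.24, neither passing (adjusted p = 0.23 and 0.20).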

How the data were processed

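The deposited values, 1 per probe set and array, were taken as log2 signal from their range, since no header states the base. MAS5 is named in the submitters' processing notes without version or role, and what else the authors did to normalize them is not given in the sources used here. Values were used as deposited. Each gene was represented by its brightest probe set, and genes averaging below 4.345, the median over probe sets, were dropped as dim. All 10547 remaining genes were fitted with limma 3.58.1 in R 4.3.3 (variance trend, two-sided), with no term but the group. P-values were adjusted over all of them by Benjamini and Hochberg's method. The script was tested on simulated data whose changes were larger than the difference of any member, so smaller changes were not covered. "Rose", "fell" and "called" mean an adjusted p under 0.05. Detection calls were not used, and 3 arrays a group limit the precision.

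Members, lists and motifs were chosen with earlier results of these data known. Named are called members, the 10 largest differences each way, a fixed set (Mrps18a, Mrps30, Mrps36, Mrpl12, Mrps12, Mrpl43), and in other lists called genes, those with the 4 smallest p values and Ppargc1a, Ppargc1b, Nrf1, Gabpa, Esrra, Tfam, Myc, Sars2 and Twnk. Other members in the text, such as the 12 with an unadjusted p under 0.05, those whose groups did not overlap and those with printed promoters, were picked after their values were seen. Of 100 gene symbols in the 5 lists, 92 were on the array and 87 tested. Symbols were matched as listed, so one that is an older name of a gene, such as Ict1, Mrp63 or Wbscr16, counts as absent. All 77 members matched RefSeq (GRCm38.p6) by Entrez ID. Figures were drawn with matplotlib 3.10.9.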

Additional observations from a re-analysis of the deposited data

How the results depend on the processing

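The count of called members was 0 in all 8 alternatives that kept the 6 arrays (quantile normalization, median centring, no dim filter, a stricter one at the 60th percentile, 16 added to the linear signal before log2, each probe set fitted separately, no variance trend, and the replicate number as a block) and 0 to 2 with 1 array left out. The family median ran from -0.06 to -0.01. The 5 lists gave 3 calls, Ppargc1a, Ppargc1b and Myc, all of them in the list of factors for mitochondrial transcription and biogenesis. Calls were 2 to 4 with all arrays, the 4 counting Ppargc1a for each of 2 probe sets. With 1 array left out they were 3 to 5, Slirp being added without saline 2 and Iars2 and Gatc without saline 3. Myc dropped under the stricter filter. Over all genes 488 were called, 292 without the variance trend and 261 to 646 with 1 array left out. With the replicate block the member count stayed at 0 and 586 genes were called. The labels state no design with pairs, so the replicate number was left out of the main fit. Deviations of same-numbered arrays correlated at 0.07, 0.04 and 0.02, and whether the numbers pair the samples was not tested. Of the 6 arrays, 5 correlated best with their own number, and saline 3 with 2MT 2. Signal over background is unknown, so which members were close to it was not tested. The cause of these changes was not tested.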

Other observations

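For 8 members the array has a further probe set, not used in the comparison of genes. With each probe set fitted separately, 0 of those above the dim filter passed in limma, and 2, of Mrps36 and Mrpl51, had an unadjusted p under 0.05 in a fit without that filter. The second probe set of Mrps36 was at 5.34, 5.02 and 5.36 in saline and 5.39, 5.55 and 5.54 in 2MT, above saline on every 2MT array as its first was (adjusted p = 0.23). The second probe set of Mrpl51 was at 7.42, 7.46 and 7.43 in saline and 7.56, 7.58 and 7.67 in 2MT (adjusted p = 0.15), while the brighter one differed by 0.02. The probe sets of Mrps5 differed in sign, at -0.04 and 0.11 (adjusted p = 0.82 and 0.44), as did those of Mrpl47, at 0.33 and -0.01, the second of them under the dim filter. The probe set shared by Ccdc142 and Mrpl53, which names no single gene, was at 5.52 to 5.81 in saline and 5.68 to 5.80 in 2MT. Near-identical copies of a gene could be read by some of these probe sets.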
